A study of Mus musculus with 14 samples.

Results

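Loss of Cic was examined in neural stem cell cultures that had been without epidermal growth factor (EGF) for 24 h. The comparison takes 7 of the 14 arrays of the study, chosen by their titles: 3 Cic-/- arrays (clones 5, 6 and 7) against 4 Cic+/+ arrays (clones 1, 2, 3 and 4). All cultures came from the subventricular zone of mouse pups at postnatal day 4, each from its own animal, and were kept in NeuroCult proliferation medium. The Cic+/+ cultures are labelled wild-type controls and the Cic-/- cultures conditional knockouts homozygous for a floxed allele, Cicflox/flox. Cultures of both genotypes were transduced with an adenovirus carrying Cre recombinase, so Cic was deleted in the dish and not in the animal. The other 7 arrays hold the same clones with EGF for 24 h, and their values are set beside those without EGF where they bear on a gene.

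Capicua, the product of Cic, is a DNA-binding repressor with an HMG box. It works with the ataxin-1 proteins ATXN1 and ATXN1L, and signalling from receptor tyrosine kinases through RAS and ERK relieves its repression. Stem cells of the subventricular zone give rise to neuroblasts, astrocytes and oligodendrocytes, and EGF keeps them dividing in culture. On the way to myelin, an oligodendrocyte progenitor becomes a committed cell, then a newly formed oligodendrocyte, and finally makes the lipids and proteins of the sheath.

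A level below is the log2 value of a gene on 1 array, the median of the probesets that name that gene alone. A change is the Cic-/- mean minus the Cic+/+ mean on the log2 scale, with its standard error (SE) from a limma fit. A gene passed, and is said to have risen or fallen, at an adjusted p under 0.05 over the 17356 genes tested. In all, 96 genes passed without EGF, 0.553% of those tested. Of these 22 rose (0.127% of genes tested) and 74 fell (0.426%), and 81 changed more than 2-fold. In all 96 the arrays of one genotype lay wholly above those of the other, as they did in 9.39% of all genes tested. Markers of the labelled cell type were present in both genotypes. Sox2 was at 11.66 ± 0.19 in Cic+/+ (SD, n = 4) and 11.72 ± 0.23 in Cic-/- (SD, n = 3), and Vim at 13.34 ± 0.10 and 13.22 ± 0.14. Of 20 listed stem cell and radial glia genes 0 passed, with an unadjusted p under 0.05 by limma for 2 higher and 0 lower. Over all genes tested 4.97% were higher and 5.85% lower at that level.

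The 7 arrays correlated with each other at 0.942 to 0.984, and their number limits the precision. The median SD of a gene was 0.248 in Cic+/+ and 0.253 in Cic-/-. Clone 4 differed from the rest in sex-linked genes, with Xist at 3.83 against 11.96 to 12.48 in the other 6 arrays, and Y-linked genes were present in it alone. Along the first principal component the arrays of clone 1 (-20.9) and clone 7 (-22.7) lay apart from the other 5 (21.2 to 41.8). Clone 5 had the lowest mean level of 25 mitosis genes, 7.32 against 8.76 and 9.02 in clones 6 and 7. The part of sex or of these clones in the results was not tested beyond leaving clones out. The number of passing genes was 105, 59, 54 and 65 without clones 1, 2, 3 and 4, and 109, 76 and 125 without clones 5, 6 and 7. Without clone 4, 55 of the 96 still passed. In 36 of the 96 genes the call was kept whichever clone was left out. Fitted on the 7 arrays alone, 44 genes passed, and 42 of these were among the 96. Atxn1, Zfp488, Sirt2, Id2, Sostdc1, Wnt5a, Kcnma1, Prmt8, Cd24a, Angptl4 and Tubb4a were among those that did not pass there.

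**Figure D1:**
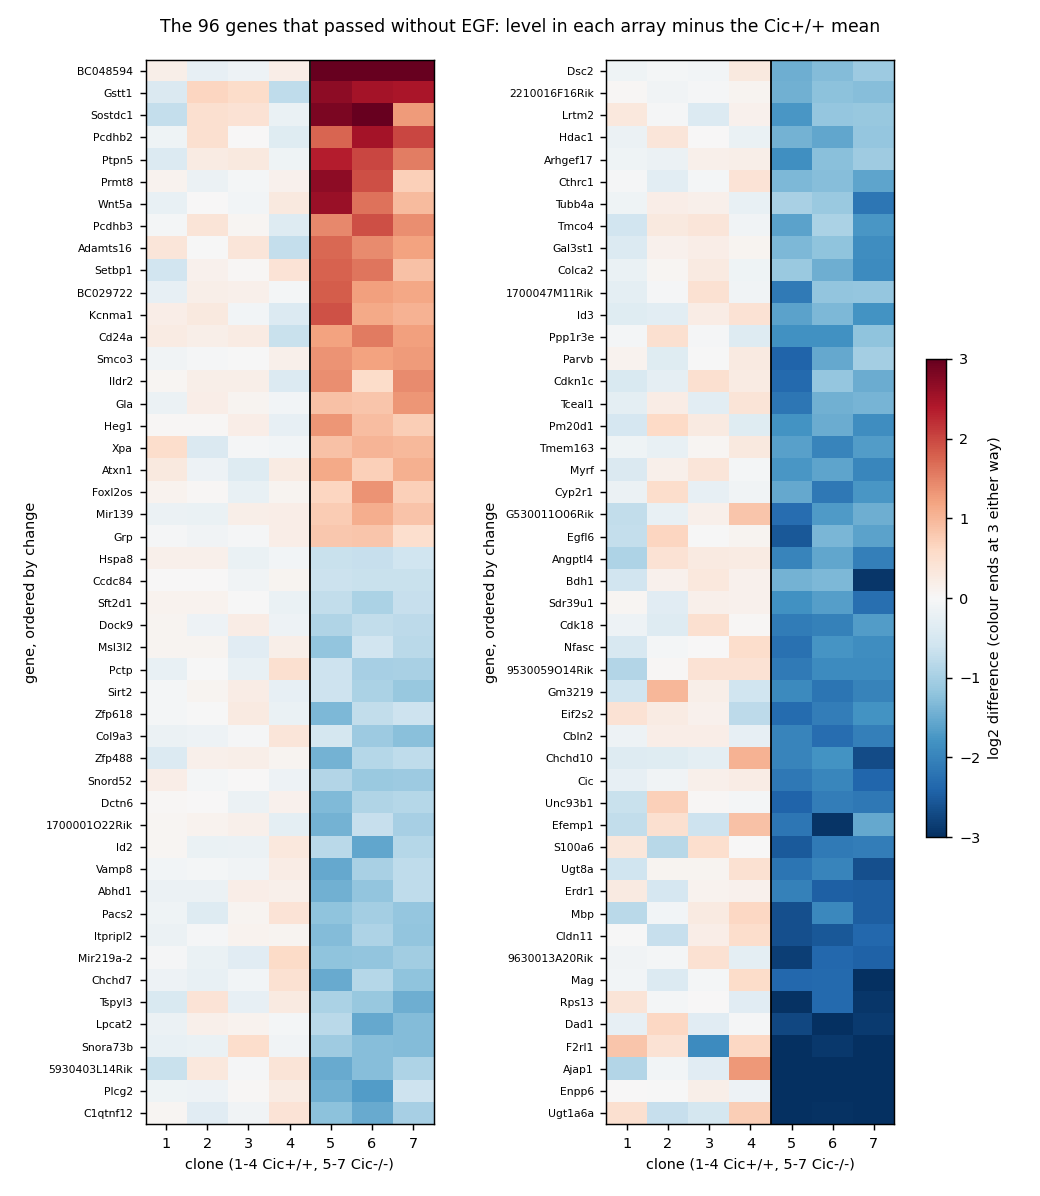
Colour gives the level of each of the 96 passing genes (rows, ordered by change) in each of the 7 arrays without EGF (columns) minus the Cic+/+ mean, on a log2 scale that ends at 3 either way. The 3 Cic-/- columns share the colour of the change in each row, while F2rl1 shows 1 Cic+/+ array (clone 3) lower than the other 3.

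Cic checked the labels. The Cic+/+ clones had levels of 9.18, 9.31, 9.57 and 9.64, and the Cic-/- clones 7.27, 7.48 and 7.04. Every Cic-/- array lay below every Cic+/+ array, and the change was -2.16 ± 0.15 (adjusted p = 9.44e-06). Of 23 probesets of Cic, 13 were lower and 0 higher, adjusted over all 233753 single-gene probesets. The deepest, 17475211, went from a mean of 10.25 to 2.85. The sources used here do not name the exons lost from the floxed allele, and a probeset outside them checks nothing. Among the 100 tested genes nearest to Cic, 50 on either side, 0 passed by limma, and 10 had an unadjusted p under 0.05. Over all genes tested these shares were 0.553% and 10.8%, so the counts near Cic are close to those of any genes. The partner Atxn1 rose: it was at 8.32, 7.86, 7.63 and 8.27 in Cic+/+ and at 9.15, 8.73 and 9.08 in Cic-/- (0.96 ± 0.19, adjusted p = 0.0394). The groups did not overlap, but the call was lost without any 1 of clones 2 to 7 (adjusted p = 0.161 without clone 2). Atxn1l, its paralogue, was at 0.12 ± 0.16 and did not pass.

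Of the genes of the oligodendrocyte lineage past the progenitor stage, 11 fell in the Cic-/- cultures and most did not pass. Across 4 lists (sheath proteins, lipid enzymes, committed cells and transcription factors) 57 genes were tested, and 0 rose. Of all genes tested 0.426% fell and 0.127% rose, and the single lists below are to be set beside these shares. The lists were chosen with earlier results of these data known, so their counts and medians are a description and no test. Their median change was -0.31, against 0.00 over all genes tested, and 42 of the 57 were negative. In the arrays with EGF the same 57 genes had a median of -0.12 and 1 fell. The arrays measure whole cultures, so fewer cells of a type and less RNA per cell cannot be told apart.

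Enpp6, a choline phosphodiesterase that marks newly formed oligodendrocytes, fell furthest among genes with more than 1 probeset. Its level was 8.52, 8.49, 8.67 and 8.34 in the Cic+/+ clones and 3.99, 4.85 and 4.83 in the Cic-/- clones. The groups lay far apart and the Cic+/+ values were tight, with an SD of 0.13 (n = 4). The change was -3.95 ± 0.21, or 15.4-fold (adjusted p = 2.96e-07), and 9 of its 12 probesets lay below -1. The Cic-/- mean of 4.56 ± 0.49 (SD, n = 3) is near the level of 4.40 under which genes were set aside as dim, so the size of the fall is not exact. With EGF both genotypes were low, at 4.99 ± 0.21 and 4.54 ± 0.22, and the change was -0.45 ± 0.21.

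A pair of enzymes that make the galactolipids of myelin fell too. Ugt8a, which builds galactosylceramide, was at 8.54, 9.21, 9.22 and 9.59 in Cic+/+ and at 6.96, 7.16 and 6.499 in Cic-/- (-2.27 ± 0.24, adjusted p = 0.000266). Gal3st1, which adds sulfate to that lipid to give sulfatide, was at 7.73, 8.29, 8.35 and 8.23 against 6.80, 6.93 and 6.28 (-1.47 ± 0.22, adjusted p = 0.0067). In both the lowest Cic+/+ array was clone 1 and the groups did not overlap. Fa2h, which hydroxylates the fatty acids of these lipids, was at -1.31 ± 0.29 and did not pass (adjusted p = 0.0674). Of the 15 lipid enzyme genes tested, 3 fell and 0 rose, with a median of -0.15. Ugt8a was the one gene of the 57 that fell with EGF too (-1.34 ± 0.24, adjusted p = 0.033).

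Of 17 genes of compact myelin and the paranode, 4 fell and 0 rose, with a median of -0.42. Mag, a glycoprotein of the inner myelin membrane that binds axons, was at 6.82, 6.48, 6.83 and 7.45 in Cic+/+ and at 4.54, 4.56 and 3.88 in Cic-/- (-2.57 ± 0.26, adjusted p = 0.000208). Its Cic-/- mean of 4.33 lies under the dim limit, so the size of this fall is a rough one. With EGF its means were 4.46 in Cic+/+ and 4.30 in Cic-/-. Mag thus cleared the dim limit only through the Cic+/+ arrays without EGF. Its adjusted p values, also for the interaction below, carry that choice. Cldn11, the tight junction claudin of myelin, was at 9.27, 8.59, 9.48 and 9.81 against 6.66, 6.74 and 6.93 (-2.51 ± 0.26, adjusted p = 0.000208). Mbp, which compacts the sheath from the cytoplasmic side, was at 7.27, 8.01, 8.34 and 8.70 against 5.45, 6.13 and 5.61 (-2.35 ± 0.32, adjusted p = 0.0026). All 5 probesets of Cldn11 lay below -1, as did 13 of 15 in Mag and 11 of 17 in Mbp. Nfasc, whose glial form anchors the paranodal loops and whose neuronal form sits at the node, was at 8.995, 9.415, 9.495 and 9.999 against 7.25, 7.70 and 7.62 (-1.96 ± 0.26, adjusted p = 0.0023). The array values do not separate these forms. In each of these 4 genes every Cic-/- array lay below every Cic+/+ array.

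The other members of that list did not pass. Cnp, an early enzyme of non-compact myelin, was at -0.55 ± 0.26. Genes of the mature sheath were low in both genotypes, with Mog at 5.22 ± 0.16 in Cic+/+ (SD, n = 4) and 5.13 ± 0.45 in Cic-/- (SD, n = 3), and Mobp at 5.27 ± 0.10 and 5.41 ± 0.21. Their changes were -0.09 ± 0.24 and 0.14 ± 0.13.

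Among transcription factors of the lineage, 2 of 11 fell and 0 rose, with a median of -0.38. Myrf, the membrane-bound factor that switches on myelin genes, was at 8.25, 8.84, 9.05 and 8.62 in Cic+/+ and at 6.94, 7.11 and 6.74 in Cic-/- (-1.76 ± 0.21, adjusted p = 0.000852). Zfp488, a zinc finger protein that works with OLIG2, was at 6.88, 7.42, 7.46 and 7.36 against 5.87, 6.42 and 6.52 (-1.02 ± 0.18, adjusted p = 0.018). Its call was lost without clone 2, 3, 4, 5 or 6 (adjusted p = 0.101 without clone 2). Olig1 and Olig2, which specify the lineage from its start, did not pass: Olig1 was at 12.66 ± 0.07 and 12.63 ± 0.23, and Olig2 at 12.38 ± 0.15 and 12.24 ± 0.14. Sox10 did not pass (-1.34 ± 0.43), with clone 6 at 8.05 inside the Cic+/+ range of 7.62 to 8.52 and clones 5 and 7 at 5.99 and 6.54. St18 was set aside as dim over the 14 arrays and has no test, but its arrays ran from 5.17 to 5.93 in Cic+/+ and from 3.63 to 4.26 in Cic-/-.

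Of 16 genes of committed and newly formed cells, 3 fell and 0 rose. Beside Enpp6 these were the noncoding RNA 9630013A20Rik and Sirt2. 9630013A20Rik was at 7.18, 7.24, 7.76 and 6.99 in Cic+/+ and at 4.47, 4.94 and 4.87 in Cic-/- (-2.53 ± 0.24, adjusted p = 0.000103). Sirt2, a deacetylase abundant in myelinating cells, was at 11.87, 12.01, 12.16 and 11.69 against 11.32, 10.98 and 10.80 (-0.90 ± 0.17, adjusted p = 0.0276). The call of Sirt2 was lost without clone 1, 2, 3, 6 or 7 (adjusted p = 0.136 without clone 6). Gpr17, a receptor of committed precursors, is listed here with the progenitor genes. It had no overlap between groups, with 9.96 to 11.01 against 8.63 to 9.62, but missed the threshold (-1.37 ± 0.31, adjusted p = 0.0717).

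Of 18 genes of oligodendrocyte progenitors tested, 0 passed in either direction, and the median was 0.13. By limma 1 higher and 1 lower had an unadjusted p under 0.05, against 4.97% and 5.85% of all genes tested. The lower one was Gpr17, given above (-1.37 ± 0.31, adjusted p = 0.0717). The higher one was Pcdh15 (0.97 ± 0.31, adjusted p = 0.233). In both genes the groups did not overlap. Pdgfra, the PDGF receptor of progenitors, was at 10.05, 10.15, 9.32 and 10.04 in Cic+/+ and at 8.56, 10.17 and 9.28 in Cic-/-, so the groups overlapped (-0.55 ± 0.38, adjusted p = 0.654). Cspg4, the NG2 proteoglycan, was at 0.13 ± 0.39. With EGF, Pdgfra was the one progenitor gene that fell (-2.61 ± 0.38, adjusted p = 0.0082). The change of Pdgfra was 2.05 ± 0.54 higher without EGF than with it, a difference that did not pass over all genes.

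**Figure D2:**
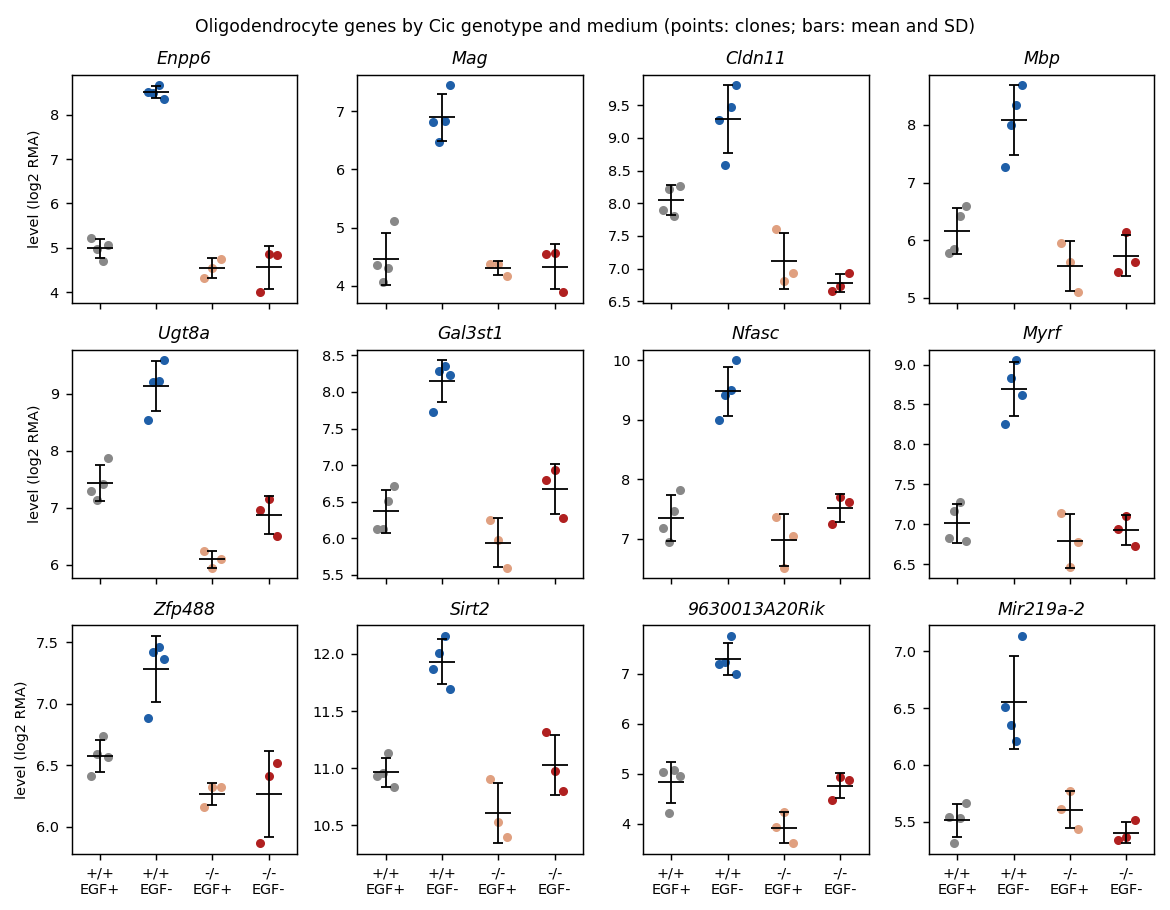
Each panel gives the log2 level of 1 gene in the 4 combinations of genotype and medium, with a point per clone and bars for the mean and SD (4 Cic+/+ and 3 Cic-/- clones). In each panel the 4 Cic+/+ arrays without EGF lie above the 3 Cic-/- arrays without EGF, for instance 8.34 to 8.67 against 3.99 to 4.85 in Enpp6.

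Of 210 microRNA genes tested, 2 passed (0.952%, near the 0.553% of all genes tested): Mir219a-2 fell and Mir139 rose. miR-219 promotes the step from progenitor to oligodendrocyte. The mature sequences below, from RefSeq on GRCm38.p6, show that the 2 genes carry different seeds (capitals, bases 2 to 8). The miR-219a-5p of Mir219a-2 is at chr2:29845689-29845709 on the minus strand, and the arms of Mir139 are at chr7:101475382-101475403 and chr7:101475418-101475439 on the plus strand.
miR-219a-5p: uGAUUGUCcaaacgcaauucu
miR-139-5p: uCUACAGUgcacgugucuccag
miR-139-3p: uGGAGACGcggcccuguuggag

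Mir219a-2 was at 6.51, 6.35, 6.21 and 7.14 in Cic+/+ and at 5.34, 5.36 and 5.51 in Cic-/- (-1.15 ± 0.19, adjusted p = 0.0115). With EGF all 7 arrays lay between 5.31 and 5.77, and the change was 0.10 ± 0.19. Mir139 was at 5.65, 5.62, 6.00 and 6.03 against 6.59, 6.90 and 6.68 (0.90 ± 0.14, adjusted p = 0.0078), and rose with EGF as well (1.04 ± 0.14). The groups did not overlap in either gene. Each rests on 1 probeset, which reads the precursor gene or its host transcript and not the mature strand. Without clone 6 the adjusted p was 0.0661 for both, and without clone 5 the call of Mir219a-2 was also lost.

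The genotype difference of most passing genes was smaller with EGF. Of the 96, 94 had the same sign in both media, 29 passed also with EGF (5 rises and 24 falls), where 0.317% of genes tested passed (0.0749% rose and 0.242% fell), and 83 had the smaller change with EGF. Since the 96 were chosen on the arrays without EGF, this lean is a description and no test. At an unadjusted p under 0.05, 37 of the 96 differed between media, against 2.86% of all genes tested, and nothing is read from that count, since the same arrays chose them. The test over all genes is the interaction, the change without EGF minus the change with it, which 1 of 17356 genes passed (0.00576%). That gene was Enpp6, at -3.50 ± 0.29 (adjusted p = 0.00015). With each clone as a random block, which pairs the media within an animal, 7 genes passed the interaction, all of them falls without EGF.

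Those 7 (adjusted p from 6.5e-06 to 0.039) were Enpp6, Mag, Myrf, Cbln2, Cdk18, Tmem163 and Dock9, and the last 4 belong to none of the lists. Cbln2, a secreted organizer of synapses, was at 7.44, 7.78, 7.78 and 7.34 in Cic+/+ and at 5.59, 5.29 and 5.52 in Cic-/- (-2.11 ± 0.18, adjusted p = 4.04e-05). With EGF its change was -0.41 ± 0.18, and the interaction was -1.70 ± 0.26 (adjusted p = 0.0873, and 0.013 with the block). Cdk18, a cyclin-dependent kinase of the PCTAIRE group, was at 7.15, 6.93, 7.79 and 7.34 against 5.19, 5.28 and 5.63 (-1.94 ± 0.19). Tmem163, a zinc transporter, was at 7.57, 7.48, 7.75 and 7.997 against 6.07, 5.72 and 6.02 (-1.76 ± 0.20). The groups of all 3 genes were apart by more than 1 log2 unit. Dock9, an exchange factor for CDC42, fell by 0.81 ± 0.15 without EGF and stood at 0.28 ± 0.15 with it. Its call without EGF was lost without clone 2, 3, 5, 6 or 7 (adjusted p = 0.124 without clone 3).

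**Figure D3:**
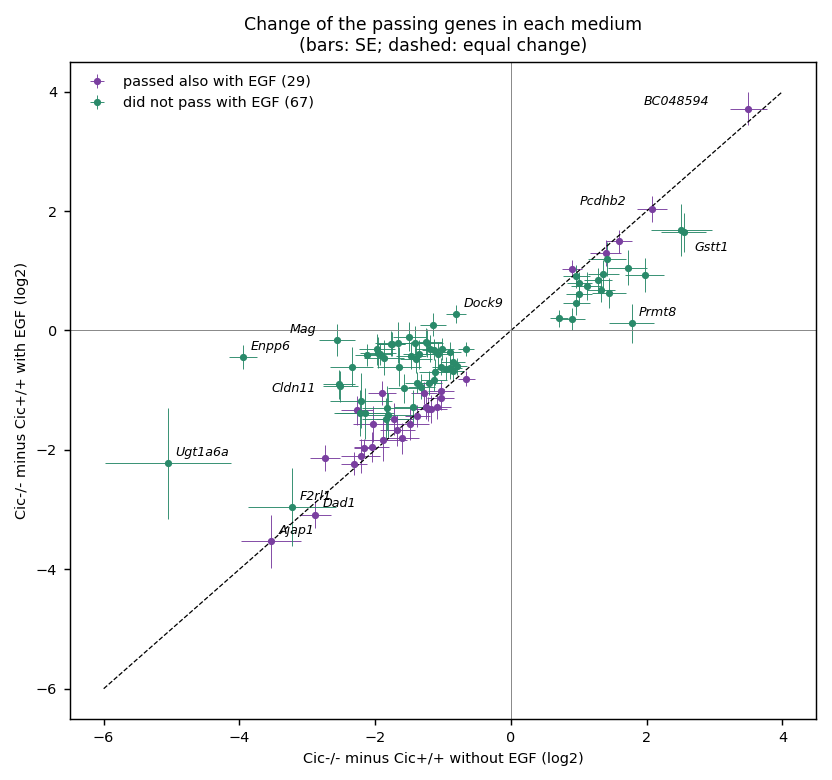
Points are the 96 passing genes, with the change without EGF on the x axis and with EGF on the y axis (log2, bars are SE), and the dashed line marks equal changes. Enpp6 and Mag lie near 0 on the y axis (-0.45 and -0.16), whereas Ajap1, Dad1, Pcdhb2 and BC048594 lie on or near the line.

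Further genes fell without EGF and did not pass with it. Angptl4, a secreted inhibitor of lipoprotein lipase, fell by 1.86 ± 0.29, with 5.87 to 7.23 in Cic+/+ and 4.76 to 5.25 in Cic-/-. It stood at -0.45 ± 0.29 with EGF. Tubb4a, a beta-tubulin of oligodendrocytes and neurons, was at 10.04, 10.37, 10.32 and 9.94 against 9.19, 9.06 and 7.99 (-1.42 ± 0.28, adjusted p = 0.0383). Cdkn1c, the cell cycle inhibitor p57, was at 7.37, 7.56, 8.30 and 8.07 against 5.50, 6.66 and 6.34 (-1.66 ± 0.34, adjusted p = 0.048). Neither pair of groups overlapped, but these calls depend on single clones. Tubb4a did not pass without clone 1, 2, 3, 4 or 6 (adjusted p = 0.154 without clone 3), and Cdkn1c did not pass without any 1 of the 7 (0.155 without clone 4). Without clone 2 or 3 Angptl4 did not pass either (0.0521 without clone 3).

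Among the inhibitors of differentiation of the Id family, 2 fell. These proteins bind basic helix-loop-helix factors and keep them from DNA, and BMP signals induce them. Id3 was at 9.59, 9.63, 10.18 and 10.39 in Cic+/+ and at 8.35, 8.61 and 8.16 in Cic-/- (-1.58 ± 0.24, adjusted p = 0.0068). Id2 was at 11.81, 11.56, 11.57 and 12.07 against 10.93, 10.20 and 10.91 (-1.07 ± 0.21, adjusted p = 0.0302). The groups did not overlap in either gene. The call of Id2 was lost without clone 1, 2, 3, 4 or 6 (adjusted p = 0.129 without clone 6), and 1 of its 4 probesets went the other way (0.29). Id1 was at -1.21 ± 0.37 and did not pass (adjusted p = 0.207), and Id4 was at -0.14 ± 0.28. Over 20 genes of BMP signalling and the Id family, 1 rose and 2 fell, and the median was -0.02.

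Among rises, Gstt1 was the largest with a named symbol. It encodes a theta-class glutathione transferase, which joins glutathione to small electrophiles. Its level was 8.45, 9.52, 9.45 and 8.13 in Cic+/+ and 11.57, 11.38 and 11.35 in Cic-/- (2.54 ± 0.33, adjusted p = 0.0015). The Cic-/- arrays were tight and the Cic+/+ arrays fell into a higher pair (clones 2 and 3) and a lower pair (clones 1 and 4). Gstt3, of the same class, was at 5.61, 7.18, 6.13 and 5.95 against 9.07, 7.82 and 7.34, without overlap, and did not pass (1.86 ± 0.42, adjusted p = 0.0674). Of 21 glutathione transferase genes 1 rose and 0 fell, and the median was -0.16. The one unnamed gene with a larger rise was BC048594, at 4.07 to 4.52 in Cic+/+ and 7.29 to 8.44 in Cic-/- (3.49 ± 0.27), noted after its values were seen.

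Of the clustered protocadherins of the beta group, single-exon cell adhesion molecules that give neurons a surface identity, Pcdhb2 and Pcdhb3 rose. Pcdhb2 was at 7.82, 8.44, 7.96 and 7.58 in Cic+/+ and at 9.70, 10.45 and 9.94 in Cic-/- (2.08 ± 0.22, adjusted p = 0.000266). Pcdhb3 was at 6.44, 6.90, 6.58 and 6.12 against 7.95, 8.43 and 7.91 (1.59 ± 0.19, adjusted p = 0.000875). The groups lay more than 1 log2 unit apart in both, and each of their 3 probesets lay above 1. Both rose with EGF too, by 2.03 ± 0.22 and 1.495 ± 0.19. Over the 22 genes of the cluster 2 rose and 0 fell, 18 were positive and the median was 0.64, against 0.00 over all genes. Pcdhb11 was at 1.57 ± 0.42 and Pcdhb7 at 1.45 without passing, while Pcdhb12, Pcdhb15, Pcdhb17 and Pcdhb22 lay between -0.25 and 0.00. The coding sequences of this cluster resemble each other, so a probeset may read more than 1 member. Pcdhb2 and Pcdhb3 were 1 of 2 pairs of neighbouring tested genes that both passed.

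A ligand of the Wnt pathway and a secreted antagonist were among the larger rises. Sostdc1, which blocks BMP and Wnt signals outside the cell, was at 5.51, 6.69, 6.64 and 6.02 in Cic+/+ and at 9.05, 9.64 and 7.49 in Cic-/- (2.51 ± 0.44, adjusted p = 0.0179). Wnt5a, a ligand of the non-canonical pathway, was at 6.60, 6.84, 6.74 and 7.13 against 9.41, 8.45 and 7.77 (1.72 ± 0.29, adjusted p = 0.011). In both the 3 Cic-/- clones differed widely, with clone 7 the lowest. The call of Sostdc1 was lost without clone 1, 4, 5 or 6 (adjusted p = 0.0931 without clone 6) and that of Wnt5a without clone 2, 3 or 6 (0.0648 without clone 3). Over 35 genes of the Wnt pathway 2 rose, these same 2, and 0 fell, with a median of 0.01. The pathway's feedback gene Axin2 was at 0.22 and Lef1 at 0.06.

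Further rises were those of Ptpn5, Prmt8, Kcnma1 and Cd24a. Ptpn5, the striatal phosphatase STEP that dephosphorylates ERK, was at 6.10, 6.75, 6.80 and 6.39 in Cic+/+ and at 8.88, 8.51 and 8.06 in Cic-/- (1.97 ± 0.29, adjusted p = 0.0045). Prmt8, a brain arginine methyltransferase, was at 4.49, 4.21, 4.34 and 4.52, close to the dim limit, against 7.08, 6.32 and 5.10 (1.78 ± 0.33, adjusted p = 0.0243). With EGF its means were 4.28 in Cic+/+ and 4.40 in Cic-/-. It thus cleared the dim limit only through the Cic-/- arrays without EGF, and its adjusted p carries that choice. Kcnma1, the calcium-activated BK potassium channel, was at 8.48, 8.56, 8.19 and 7.86 against 10.19, 9.41 and 9.31 (1.36 ± 0.23, adjusted p = 0.0116). No groups overlapped. Prmt8 was lost without any 1 of clones 1 to 6 (adjusted p = 0.113 without clone 6) and Kcnma1 without clone 3, 4 or 5 (0.0648 without clone 3). Of 21 potassium channel genes 1 rose and 0 fell. Cd24a, a surface glycoprotein of neuroblasts, was at 10.10, 10.03, 10.09 and 9.17 against 11.05, 11.40 and 11.07 (1.33 ± 0.20, adjusted p = 0.0069) and did not pass without clone 6 (0.0596). It was 1 of 22 neuroblast and neuron genes to pass. The neuroblast gene Dcx was at 0.02.

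The remaining named rises were smaller. Adamts16, a secreted metalloprotease, rose by 1.45 ± 0.25, and Setbp1, which binds the oncoprotein SET, by 1.41 ± 0.28. Smco3 rose by 1.28 ± 0.21 and Ildr2 by 1.12 ± 0.23. The Cic+/+ means of Smco3, 4.27 without EGF and 4.35 with it, lie under the dim limit. Smco3 thus cleared that limit only through the Cic-/- arrays. Gla, the lysosomal alpha-galactosidase, rose by 1.01 ± 0.19 and Heg1, a membrane protein of endothelial junctions, by 1.00 ± 0.19. Each of these 6 lost its call without at least 1 clone. For Adamts16 this was clone 5 or 6 (highest adjusted p = 0.0758), for Setbp1 clone 1, 2, 3, 5 or 6 (0.177) and for Smco3 clone 2 (0.0578). For Ildr2 it was any clone but 6 (0.14), for Gla clone 1, 3, 4 or 7 (0.095) and for Heg1 any clone but 7 (0.119). Adamts5, related to Adamts16, was at 1.37 ± 0.29 and did not pass (adjusted p = 0.0528).

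Other falls were close in size with EGF and without it. Ajap1, a transmembrane protein of adherens junctions, was at 6.81, 7.63, 7.36 and 9.01 in Cic+/+ and at 4.13, 3.97 and 4.41 in Cic-/- (-3.53 ± 0.45, adjusted p = 0.0013), and its change with EGF was the same to 2 decimals. Unc93b1, a chaperone that brings nucleic acid-sensing Toll-like receptors into endosomes, was at 6.82, 8.203, 7.53 and 7.43 against 5.09, 5.42 and 5.35 (-2.21 ± 0.28, adjusted p = 0.0015), with -2.11 ± 0.28 with EGF. Erdr1 was at 10.83, 10.05, 10.65 and 10.68 against 8.54, 8.11 and 8.08 (-2.31 ± 0.20, adjusted p = 3.27e-05), with -2.23 ± 0.20 with EGF. The genotypes were far apart in all 3 genes. Hdac1, a histone deacetylase, fell by 1.38 ± 0.19 and by 1.43 ± 0.19 with EGF. F2rl1, the protease-activated receptor PAR2, was at 9.33, 8.92, 6.59 and 9.10 against 4.92, 5.59 and 5.28 (-3.22 ± 0.65, adjusted p = 0.0409). Clone 3 lay well below the other Cic+/+ clones, and the call was lost without clone 1, 2, 4, 5, 6 or 7 (adjusted p = 0.157 without clone 2).

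The calls of 3 more of the largest falls depend on single clones. S100a6, a calcium-binding protein, fell by 2.23 ± 0.38 (adjusted p = 0.0138, and 0.0741 without clone 4). Efemp1, a fibulin of the extracellular matrix, fell by 2.21 ± 0.46 (adjusted p = 0.048, and 0.191 without clone 6). Chchd10, a mitochondrial protein, fell by 2.15 ± 0.43 (adjusted p = 0.0383), with clone 4 at 9.80 above the other Cic+/+ clones at 8.37 to 8.46. It did not pass without any 1 of the 7 clones (0.108 without clone 3), S100a6 did not without clone 3, 4 or 6, and Efemp1 did not without clone 2, 3, 4, 5 or 6.

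Genes known as targets of capicua in other systems did not pass. Of 22 such genes 0 rose and 0 fell, and the median was 0.00. By limma at an unadjusted p under 0.05, 4 were higher and 2 lower, where 4.97% and 5.85% of all genes tested were. The PEA3 factors are the best known of them. Etv1 was at 7.47, 7.84, 7.40 and 8.26 in Cic+/+ and at 9.42, 9.11 and 8.85 in Cic-/-, without overlap, and just missed the threshold (1.39 ± 0.29, adjusted p = 0.0504). It passed with centred or quantile normalized arrays, a trended prior, the stricter dim filter or without clone 4. With EGF it was at -0.07 ± 0.29. Etv4 (0.06 ± 0.34) and Etv5 (0.41 ± 0.19) had overlapping groups. The ERK feedback gene Spry2 was at 11.13 to 11.35 in Cic+/+ and 10.65 to 11.00 in Cic-/- (-0.36 ± 0.12) and did not pass.

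No gene of the mitosis and replication lists passed. Of 25 mitosis genes all were negative, with a median of -0.40, and of 27 replication genes 26 were negative, with a median of -0.38. By limma 2 and 4 were lower and 0 higher at an unadjusted p under 0.05, where 5.85% of all genes tested were lower and 4.97% higher. With EGF the medians of the same lists were -0.88 and -0.74, and 0 genes of either passed. The mean mitosis level was 8.77 to 8.82 in the Cic+/+ clones and 7.32, 8.76 and 9.02 in clones 5, 6 and 7. Clone 5 lay far below the Cic+/+ range, clone 6 at its edge and clone 7 above it. For replication genes it was 7.35 to 8.13 in Cic+/+ and 7.02, 7.31 and 8.05 in Cic-/-.

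Astrocyte genes varied between clones. Of 21 tested 0 passed, with a median of -0.30. By limma 4 were lower and 1 higher at an unadjusted p under 0.05, against 5.85% and 4.97% of all genes tested. Gfap, the intermediate filament of astrocytes, was at 9.43, 9.21, 8.56 and 9.72 in Cic+/+ and at 5.87, 6.10 and 9.47 in Cic-/-. Clones 5 and 6 lay below the Cic+/+ range and clone 7 inside it (-2.09 ± 0.77). Slc1a3, the glutamate transporter GLAST, was at 12.79 to 13.15 against 12.28 to 12.52 (-0.57 ± 0.18, adjusted p = 0.227). Markers of microglia, endothelium, pericytes and fibroblasts, ependyma and choroid plexus had 0 of 32 tested genes passing. At an unadjusted p under 0.05 by limma 1 was higher and 0 lower, to be set beside the same shares of all genes. Their mean levels per list ran from 4.48 to 5.23 in Cic+/+ arrays and from 4.56 to 5.30 in Cic-/- arrays, and the brightest, endothelial Flt1, was at 8.04.

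The immediate early, EGF receptor, other receptor kinase, Notch, Hedgehog, p53, FoxO, interferon, cholesterol, matrix and axon guidance lists held 0 passing genes each. Together they held 220 tested genes, and at an unadjusted p under 0.05 by limma 17 were higher (7.73%, against 4.97% of all genes tested) and 15 lower (6.82%, against 5.85%). The medians of these 11 lists lay between -0.22 and 0.17. Erbb4, the neuregulin receptor, was at 8.87 to 9.67 in Cic+/+ and 10.14 to 10.71 in Cic-/- (1.14 ± 0.34, adjusted p = 0.191). Notch2 was at 1.06 ± 0.24 (adjusted p = 0.0727, and 0.0447 with the block). Ifitm3, an interferon-induced antiviral protein, was at 9.85 to 10.42 against 6.33, 9.29 and 7.88 (-2.29 ± 0.68, adjusted p = 0.192).

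**Figure D4:**
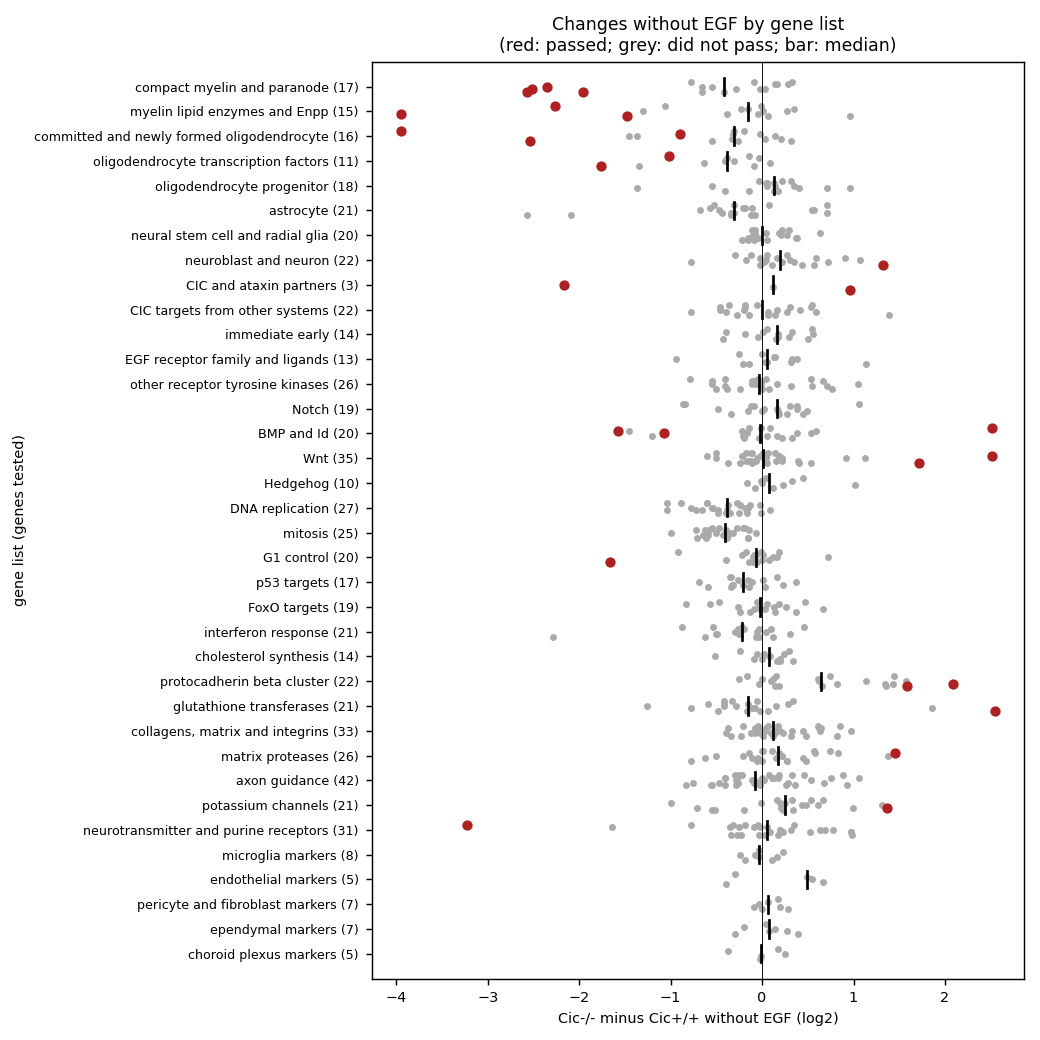
Points are the tested genes of each list, placed by their change without EGF (log2), with passing genes in red, others in grey and a bar at the median of the list. Red points lie left of 0 in the 4 lists of oligodendrocyte genes past the progenitor stage, 11 genes in all (Enpp6 is in 2 of the lists), and right of 0 for the protocadherin and Wnt lists. They also lie left of 0 for G1 control and neurotransmitter receptors, and right of 0 for neuroblast, glutathione transferase, matrix protease and potassium channel genes. The BMP and Id list and that of Cic and its partners have them on both sides. In no list were 58 of the falls and 13 of the rises.

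The probesets of a gene did not always agree. A gene is called concordant here if it has 3 or more probesets, at least 80% of them share the sign of the gene value and at least 50% lie beyond 0.5 that way. By that measure 73 of the 96 genes were concordant (18 rises and 55 falls), 10 had a single probeset and 13 had more without agreement. Dad1, a subunit of the oligosaccharyltransferase, counts as concordant yet had a gene value of -2.88 ± 0.23 but 1 of 7 probesets below -1, at -5.27. Rps13, a ribosomal protein, stood at -2.74 ± 0.22 with 1 of 2 below -1, at -5.10. Eif2s2, a subunit of the initiation factor eIF2, stood at -2.05 ± 0.26 with 1 of 4 below -1, at -4.66. A median over 4 or 2 probesets is the mean of its middle pair, so 1 such probeset can carry it. The median is taken on each array, so a deep fall can also change which probeset is the middle one, as among the 7 of Dad1. Ugt1a6a, the deepest value of all (-5.05 ± 0.93), rests on 1 probeset in a gene family whose members share exons. Its call was lost without clone 1, 2, 3, 4 or 7 (adjusted p = 0.116 without clone 4).

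Disagreement also touched genes of the myelin group when the brightest probeset stood in for the median. Enpp6 (-2.35), Cldn11 (-3.24), Mbp (-3.92) and Gal3st1 (-1.54) still passed. Mag was at -1.66 (adjusted p = 0.142), Ugt8a at -0.80 (0.109), Myrf at -0.31 (0.661) and Sirt2 at -0.58 (0.13), none of which passed. Nfasc turned to 0.43 (0.816) at 1 of its 27 probesets, while 23 of the 27 lay below -1. Cbln2, Cdk18 and Tmem163 also did not pass there, at -0.46, -0.19 and -0.19. With the mean over probesets all of these passed. Among the rises Gstt1 kept 2.11, whereas Ptpn5 was at 0.57 (0.434) and did not pass.

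**Figure D5:**
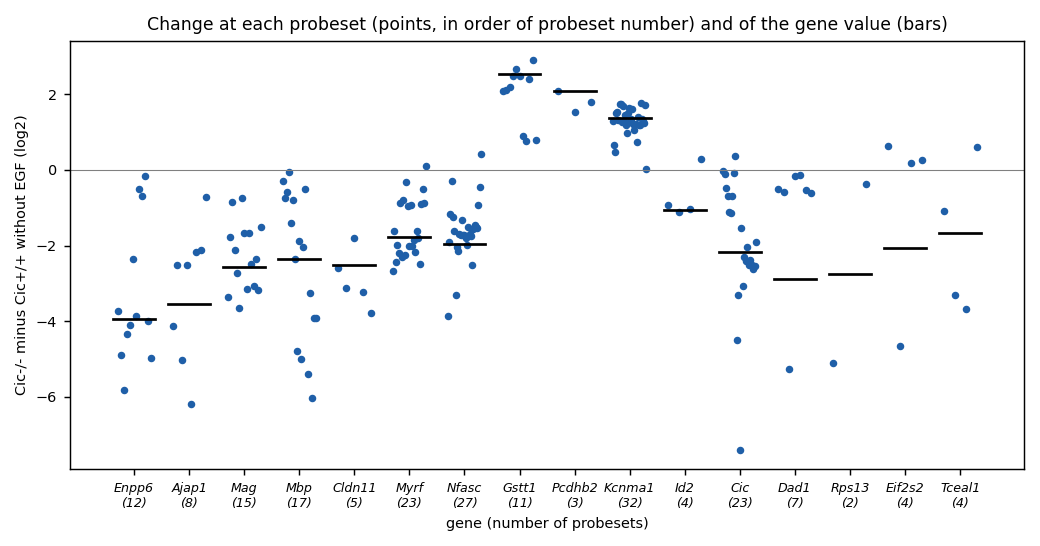
Points are the changes without EGF (log2) of the single probesets of 16 genes, ordered by probeset number within a gene, and bars are the gene values. The probesets of Cldn11 and Gstt1 lie on 1 side of 0, while in Dad1, Rps13 and Eif2s2 a lone point between -5.27 and -4.66 carries the gene value.

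Capicua binds the octamers TGAATGAA, TGAATGGA, TCAATGAA and TCAATGGA. These were searched on both strands in RefSeq promoter windows of 300 bases (250 before to 50 after a start, GRCm38.p6), and 3.22% of 13478 tested genes with a window held one. Among passing genes with a window it was 1 of 10 that rose and 2 of 50 that fell. A match is a description of letters, not a bound site. The stretches around the 3 matches are shown so that the octamer (capitals) can be seen in its context, each on the strand of its gene: Ptpn5 at chr7:47132785-47132844 (minus), Cyp2r1 at chr7:114563052-114563111 (minus) and Gal3st1 at chr11:3989808-3989867 (plus), where the octamer lies on the other strand.
Ptpn5: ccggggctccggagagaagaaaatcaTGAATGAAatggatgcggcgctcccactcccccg
Cyp2r1: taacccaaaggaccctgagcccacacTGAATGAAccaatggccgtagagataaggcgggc
Gal3st1: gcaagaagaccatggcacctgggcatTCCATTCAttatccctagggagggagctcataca

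Of the 3, Ptpn5 rose and the others fell. Cyp2r1, a vitamin D 25-hydroxylase, was at 5.59, 6.30, 5.52 and 5.67 in Cic+/+ and at 4.23, 3.62 and 4.03 in Cic-/- (-1.81 ± 0.36, adjusted p = 0.0407). Its Cic-/- arrays were all under the dim limit, and its call was lost without any 1 of the 7 clones (adjusted p = 0.117 without clone 4).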

How the data were processed

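The deposited values, on the log2 scale, cover 269751 probesets on 14 Affymetrix arrays. Per the submitters' processing notes the authors made them with RMA, which corrects the background, normalizes arrays to each other and sums probes to a probeset. The RMA version and genome build were not stated in the sources used here. Of the probesets 233753 name 1 gene, 5106 several and 30892 none. A gene value is the median over the first kind on each array, which does not always mute a single probeset, as Dad1 shows. Names were matched through RefSeq's GRCm38.p6 gene list (20875 of 23152 symbols, 2208 more by synonym, 69 kept as given). Genes with a mean over the 14 arrays under 4.40, the lowest 25%, were left out as dim (5785 of 23141). That mean includes the compared arrays, so a gene such as Mag or Prmt8 can be tested through the group where it is high.

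Changes were fitted with limma 3.58.1 (R 4.3.3): 4 group means over all 14 arrays, 10 residual and 4.06 prior degrees of freedom, no block, Benjamini-Hochberg over 17356 genes. The procedure was tested on simulated data. Figures used Python 3.11.15, matplotlib 3.10.9 and pandas 2.3.3. The labels give 1 clone number to an animal's culture in both media. Deviations of same-numbered arrays correlated at 0.473, 0.323, 0.459, 0.337, 0.584, 0.156 and 0.616 for clones 1 to 7 (block correlation 0.348).

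Genes are named by a rule: the 15 largest concordant rises and falls with a plain symbol, up to 6 passing members of each of 37 lists (699 genes) and up to 2 others where fewer than 2 pass, all members of lists of up to 5, Cic, Atxn1, Atxn1l, Etv1, Etv4, Etv5 and Xist, the 6 largest genes without concordant probesets, and genes passing the interaction. The members, lists and rule were chosen with earlier results of these data known. Genes named outside the rule were chosen after their values were seen: Angptl4, Axin2, BC048594, Cdk18, Cnp, Col9a3, Cspg4, Cyp2r1, Dctn6, Dcx, Dock9, Fa2h, Grp, Hdac1, Id1, Id4, Lef1, Mir139, Mir219a-2, Mobp, Mog, Olig1, Olig2, Pdgfra, Sox2, Sox10, St18, Tmco4, Tmem163, Tubb4a, Vim, Zfp618 and the Pcdhb genes beside Pcdhb2 and Pcdhb3. The alternatives were the mean or brightest probeset, no or a stricter dim filter (50%), a trended robust prior, centred or quantile normalized arrays, the clone as block, the 7 arrays alone, a 1.5-fold minimum and each clone left out.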

Additional observations from a re-analysis of the deposited data

Results flagged for a closer look

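Of 116 named genes, 10 had a Cic+/+ array without EGF far from the other 3, with a gap past the critical value of Dixon's test (8.62%, where chance gives about 1 in 20). Clone 4 was low in Cd24a (9.17, others 10.03 to 10.10), Ntn1 (8.95, others 9.80 to 9.94) and Xist (3.83, others 11.96 to 12.23). Clone 4 was high in Chchd10 (9.80, others 8.37 to 8.46) and Oasl2 (6.04, others 5.44 to 5.54). Clone 1 was low in Etv4 (7.89, others 8.96 to 9.16) and Kcnj10 (8.65, others 9.58 to 9.73) and high in Etv5 (11.51, others 10.88 to 10.97). Clone 3 was low in F2rl1 (6.59, others 8.92 to 9.33) and high in Csf1r (5.39, others 4.90 to 4.98). Cd24a, Chchd10 and F2rl1 are among the 96 passing genes. In Etv5 and Kcnj10 the value of clone 1 lay inside the Cic-/- range (11.31 to 11.74 and 8.01 to 8.76).

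The change of Enpp6 differed between media by -3.50 (adjusted p = 0.00015 over all genes).

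Of 35998 probesets that name several genes or none, and so enter no gene value, 61 passed without EGF (12 higher and 49 lower, 0.169% of them). The largest rise was at probeset 17466801, from 3.30 to 7.47, and the largest fall at 17510496, from 11.09 to 6.19.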

How the results depend on the processing

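Every named passing gene kept its direction under each alternative that tested it, except with the brightest probeset, where 9 turned: Col9a3 (0.043), Cthrc1 (0.17), Dctn6 (0.10), Eif2s2 (0.64), Grp (-0.035), Lrtm2 (0.24), Nfasc (0.43), Tmco4 (0.10) and Zfp618 (0.16). The 96 calls without EGF became 170 with the mean over probesets (75 of the 96 among them), 44 on the 7 arrays alone and 24 with a 1.5-fold minimum, and ran from 54 to 125 with 1 clone left out. The brightest probeset gave 72, of which 32 are among the 96, with 32 rises and 40 falls. No dim filter gave 89, the stricter one 76, the trended prior 106, centring 102 and quantile normalization 90. The 55 calls with EGF became 7 with the 1.5-fold minimum and ran from 19 to 60 with 1 clone left out. The replicate block, which pairs the media by clone, gave 121 calls without EGF (93 of the 96 among them) and 7 interactions in place of 1. Interactions were 2 with the mean over probesets, 0 with the brightest probeset and 0 with the stricter filter, which leaves out Enpp6, and ran from 1 to 3 with 1 clone left out. The 13 lower probesets of Cic became 5 on the 7 arrays alone, all among the 13, and 6 to 12 with 1 clone left out (without clone 7, 8 of 9 were among the 13). Of the 96 genes, 9 passed under all 17 alternatives, and 5 more, Enpp6 among them, passed in each of the 16 that tested them. With the brightest probeset 57 of the 96 did not pass and 7 were not tested. A count over concordant genes alone, adjusted over those, was not run, since that choice uses the size of the change. The arrays number 3 and 4, levels near 4.40 leave the size of a change uncertain, and the values give no count of cells.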
